A study of Drosophila melanogaster with 2 samples.

Results

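Heat shock genes and the gene of their regulator were examined for association with CG11085, the product of a homeobox-class gene of Drosophila melanogaster, in whole embryos. The set comprises 9 protein-coding genes of 13945 on the major chromosome arms and chromosome 4, taken by symbol from the Ensembl annotation. They are the small heat shock genes Hsp22, Hsp23, Hsp26, Hsp27, Hsp67Ba and Hsp67Bc, the Hsp70-family gene Hsp68, the Hsp90 gene Hsp83, and Hsf. All 9 symbols were found, 7 of them on 3L and 6 of these in the cluster known as 67B. The only group was transgenic CG11085-GFP embryos of 0 to 24 hours, in 2 biological replicates, from which a CG11085-eGFP fusion was precipitated with an antibody against GFP and the recovered DNA sequenced. Both replicates carry the same strain and donor labels, so the strain is 1 source. No promoter driving the fusion is named in the labels, which also mention no heat treatment. No control library and no flies without the fusion were analysed here. Values are therefore described gene by gene in both replicates, without a contrast between conditions and without a test. In whole embryos, binding in a few cells and weaker binding in many cells cannot be told apart.

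Heat shock proteins are chaperones that keep other proteins from misfolding and aggregating. On heat stress the heat shock factor Hsf forms trimers and binds heat shock elements, runs of the unit NGAAN in alternating orientation, upstream of these genes. Before stress, the fly heat shock promoters that have been studied carry GAGA factor on GAGAG words and a paused RNA polymerase close downstream of the transcription start site (TSS), and several small heat shock genes are also expressed without heat during development.

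A summit, the position of highest signal in a peak, was counted for a gene when its distance to any of the gene's TSSs was at most 1 kb. In the conservative list, which the authors thresholded on the irreproducible discovery rate (IDR, a measure of how alike the replicates rank their regions), 3 of the 9 genes had such a summit, namely Hsp26, Hsp27 and Hsp83. Over all 13945 protein-coding genes the share was 15.1%, or 2109 genes. The other 6 genes had none, and in the ranked comparison of both replicates 5 of these had only regions below the conservative threshold, while Hsf had none. The 3 peaks lay at very different heights. On the authors' signal scale, whose unit is not stated, Hsp27 stood at 516, Hsp83 at 239.8 and Hsp26 at 80.9 in pooled reads, against a median of 124 over the 2610 conservative peaks on the arms, with quartiles of 91.8 and 184. Hsp27 and Hsp83 were thus above the upper quartile and Hsp26 below the lower one.

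The sequences that carry these peaks are shown first, all from the RefSeq copy of the Release 6 (dm6) assembly and read 5′ to 3′ on the strand of the gene. The peak of Hsp27 is given whole, chr3L:9383797-9384023 on the plus strand, with the homeodomain word TAATTG in capitals. A stretch of 71 bases around the summit of Hsp26 in pooled reads, chr3L:9377466-9377536 on the minus strand, has GAGAG and its complement CTCTC in capitals. The 30 bases at the Hsp83 summit in pooled reads, chr3L:3193133-3193162 on the plus strand, have the element word GAANNTTC in capitals. The bases around a further Hsp83 summit, in the intron at chr3L:3194240-3194340 on the plus strand, have TAATTG in capitals.
Hsp27 peak: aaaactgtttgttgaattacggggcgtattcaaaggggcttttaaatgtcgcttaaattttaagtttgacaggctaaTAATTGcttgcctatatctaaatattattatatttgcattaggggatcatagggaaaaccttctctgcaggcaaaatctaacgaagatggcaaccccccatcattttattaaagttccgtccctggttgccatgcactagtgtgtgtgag
Hsp26 summit: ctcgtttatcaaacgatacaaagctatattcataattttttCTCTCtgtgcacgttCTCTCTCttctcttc
Hsp83 summit: atccagaagcctctaGAAGTTTCtagagac
Hsp83 intron summit: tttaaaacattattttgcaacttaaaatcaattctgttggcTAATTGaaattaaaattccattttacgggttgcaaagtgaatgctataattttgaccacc

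Hsp27 (FBgn0001226, chr3L:9384063-9385694, plus strand), a small heat shock protein found in the nucleus, had the strongest peak of the set. Its peak of 227 bp ended upstream of the gene, and the summit lay 144 bp upstream of its only TSS. The signal was 276 in replicate 1 and 239 in replicate 2, the most even pair among the strongest regions of the genes, with a ratio of 1.16. The summits called in the single replicates lay 10 and 2 bp from the pooled one, in replicate 1 and replicate 2, so the position also differed little between the replicates. The peak ranked 88 of 2610 conservative peaks by signal, and Hsp27 ranked 105 of the 2109 genes with a conservative summit near a TSS. It reached 5.0 on the −log10 scale of the global IDR, and it was in the thresholded list of each replicate. It was the only ranked region within 1 kb of the TSS, and no TSS of another gene lay within 1 kb of its summit. The protein-coding genes nearest to it in both replicate signals were LPCAT, with 279.5 and 239.7, and MYPT-75D, with 285 and 235, in replicates 1 and 2.

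Hsp83 (FBgn0001233, chr3L:3192969-3197059, plus strand), the fly Hsp90, which is abundant without heat and folds kinases and steroid receptors in many animals, had 2 conservative peaks. The first spanned 89 bp, chr3L:3193089-3193177, and only 19 conservative peaks on the arms were narrower, the median width being 340.0 bp. Its region spanned 80 bp in replicate 1 and 280 bp in replicate 2, so of the replicates only replicate 1 had the narrow width. Its signal was 176 in replicate 1 and 70.8 in replicate 2, a ratio of 2.49, so replicate 2 was the lower of the pair by more than at Hsp27. The gene has 2 annotated TSSs, and the summit lay 78 bp upstream of the one at 3193216, within the 5′ UTR of the longer transcript that starts at 3192969. It lay 647 bp upstream of the TSS of CG14965, a gene on the opposite strand, as well. The peak reached 4.02 on the −log10 IDR scale, ranked 405 of 2610 peaks, and was in both replicates' lists, where the replicate summits lay 31 and 38 bp upstream of the pooled one. Top1, which encodes DNA topoisomerase I, was the nearest to it in replicate signals with 169.8 and 66.1, followed by Alp12 with 157 and 71.0.

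The other conservative peak of Hsp83, chr3L:3194120-3194459, lay in the intron between the first exons, which end at 3193367, and the last, which starts at 3194499. Its summit was 1074 bp downstream of the nearer TSS and so outside the 1 kb rule, and it was not counted above. The signal was 194 in pooled reads, 124 in replicate 1 and 82.1 in replicate 2, at a −log10 IDR of 3.88. Both replicates' lists held a summit there too, 1064 and 1063 bp downstream of that TSS in replicate 1 and replicate 2. Between 1 kb upstream and 1 kb downstream of Hsp83 there were 6 ranked regions, and the other 4 had pooled signals from 13.3 to 59.4 and were in neither list.

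**Figure D1:**
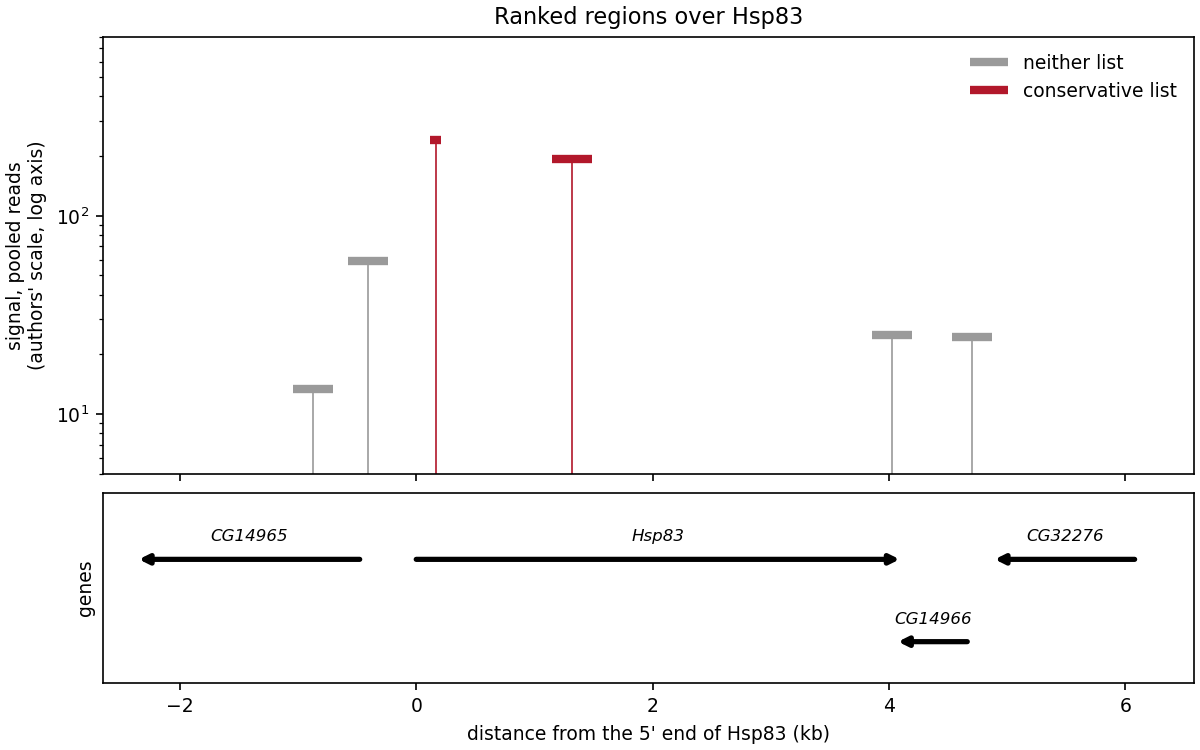
Pooled signal of each ranked region over Hsp83 and 1 kb to each side, by distance from the 5′ end of the gene, with a horizontal bar for the extent of a region and a thin line at its summit. The conservative peaks, at 239.8 and 194, stand over the 5′ part of the gene, and arrows below show protein-coding genes in their direction of transcription.

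Hsp26 (FBgn0001225, chr3L:9376418-9377427, minus strand), a cytoplasmic small heat shock protein, had the weakest conservative peak of the set. The peak, chr3L:9377331-9377670, had its summit 74 bp upstream of the 5′ end of the gene. Its signal was 48.8 in replicate 1 and 35.1 in replicate 2, a ratio of 1.39, and it ranked 2228 of 2610 peaks. The −log10 IDR of 2.27 was close to the lowest in the conservative list, 2.00. Neither replicate's own thresholded list held it, since its regions reached 1.83 and 1.00 in the rankings of replicate 1 and replicate 2, and the replicate summits lay 76 and 61 bp further upstream. A second gene had a TSS within reach, the antisense RNA gene asRNA:CR43481, 659 bp from the summit. The genes nearest to Hsp26 in replicate signals were PHDP, a homeobox gene, with 48.3 and 34.6, and Sou, with 50 and 35.7.

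The larger list of the authors, which held 3170 peaks against 2649 in the conservative one, added Hsp22 and Hsp67Bc and so named 5 of the 9 genes, where 17.3% of all protein-coding genes were named. Both were added by 1 summit at 9372969, where the divergent genes face away from each other. It lay 38 bp downstream of a TSS that Hsp22 shares with CG4456, another gene of the cluster, and 472 bp upstream of the TSS of Hsp67Bc. Its signal was 61.1 in pooled reads, 40.3 in replicate 1 and 26.7 in replicate 2, at a −log10 IDR of 1.66, so the peak cannot be given to 1 of the 3 genes. The lists of single replicates named Hsp27 and Hsp83 of the set, 2 of 9 genes each, where 13.3% of all protein-coding genes were named in replicate 1 and 11.2% in replicate 2. Of the 4 summits that counted for members in the larger list, 3 lay within 1 kb of a TSS of another gene, and of the 3 in the conservative list, 2 did.

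The ranked comparison of both replicates lists 147249 regions above and below the threshold, and 8 of the 9 members had one within 1 kb of a TSS, against 85.9% of all protein-coding genes. The strongest region of Hsp22 (FBgn0001223), a small heat shock protein of mitochondria, and of Hsp67Bc (FBgn0001229), a small heat shock protein that acts in autophagy, was again 1 region, with its summit at 9373490. It had 70.9 in pooled reads, 56.3 in replicate 1 and 19.2 in replicate 2. The summit lay 507 bp upstream of the second TSS of Hsp22, inside the 5′ UTR of its longer transcript, and 993 bp upstream of Hsp67Bc, at the edge of the window. Although its pooled signal was above that of the region at 9372969, its −log10 IDR was lower, 1.05 against 1.66, and replicate 2 was the lower sample at both.

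Hsp67Ba (FBgn0001227), a gene with a small heat shock protein domain, had 40.8 in pooled reads, 31.1 in replicate 1 and 12.9 in replicate 2, in its coding exon 852 bp downstream of the TSS. Its region upstream of the TSS, with the summit at 365 bp, had 37.9 in pooled reads, 18.5 in replicate 1 and 13.1 in replicate 2. Hsp23 (FBgn0001224), a cytoplasmic small heat shock protein, was the weakest gene with a region, with 12 in pooled reads, 10.6 in replicate 1 and 2.84 in replicate 2, centred 525 bp upstream of the TSS. Its region nearest to the TSS, 117 bp upstream, had 11.2 in pooled reads and was the higher in replicate 2, with 4.65 in replicate 1 and 8.81 in replicate 2. All of these regions were at or below 0.33 on the −log10 IDR scale.

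**Figure D2:**
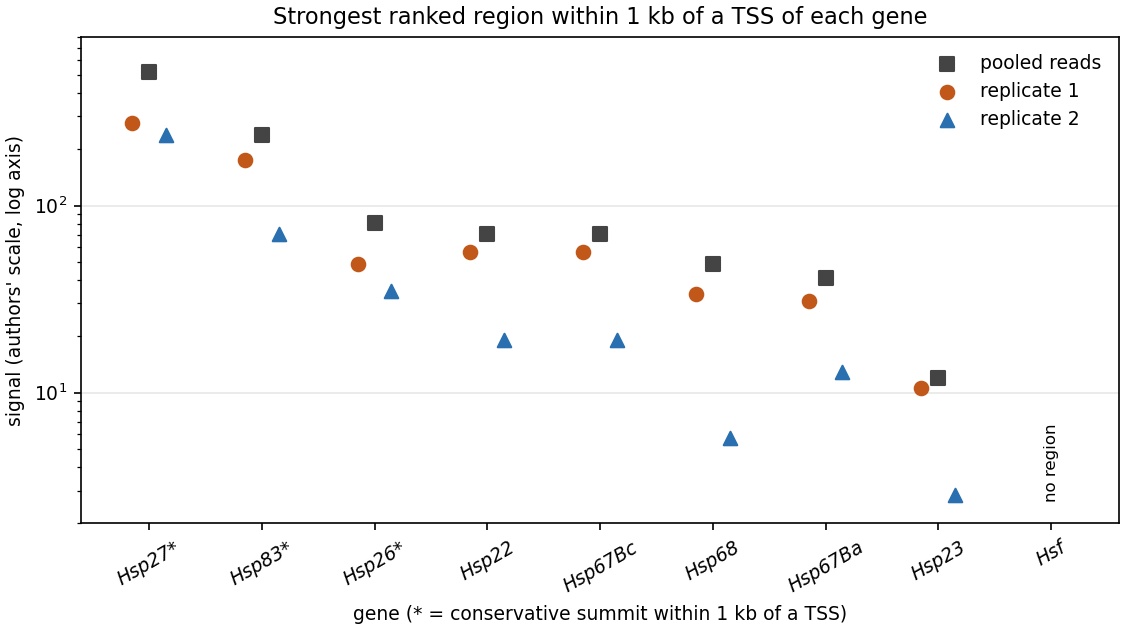
Signal of the strongest ranked region within 1 kb of a TSS of each gene on a log axis, with squares for pooled reads, circles for replicate 1 and triangles for replicate 2. Hsp27 and Hsp83 stand above 200 in pooled reads and the other genes below 100, Hsp22 and Hsp67Bc show the same region, and Hsf had none.

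Hsp68 (FBgn0001230, chr3R:24055080-24057310, minus strand), a heat-inducible member of the Hsp70 family, had 48.6 in pooled reads, 33.8 in replicate 1 and 5.74 in replicate 2. Among the strongest regions of the genes in the comparison, this was the most uneven pair, with a ratio of 5.89. Its summit lay in the coding exon 993 bp downstream of the TSS at a −log10 IDR of 0.13. From this summit upstream past the TSS, the comparison lists no further summit for 17642 bp, up to 24073959. Each replicate's own ranked file does list one there, with 36.0 and its summit 917 bp upstream of the TSS in replicate 1, and 30.2 and 893 bp upstream in replicate 2. Neither was in a thresholded list, and their pooled signal cannot be given. Over the gene with 1 kb to each side, replicate 2's own ranked file lists only 1 region, this upstream one. The 5.74 behind the ratio of 5.89 thus has no region in that file, and the upstream pair of 36.0 and 30.2 was far more even. Of 48966 regions of replicate 1 on the arms that overlapped a region of replicate 2, 238, or 0.486%, had no overlapping region in the comparison.

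Hsf (FBgn0001222, chr2R:18130303-18134634, minus strand), the gene of the heat shock factor itself, had no region within 1 kb of its TSS in the comparison of both replicates. The nearest summits on either side were 4398 and 4295 bp from the gene. The other series-level ranked file lists 3 regions near the TSS with pooled signals of 26.4, 18.7 and 8.71, and replicate 1 lists 2, with 29.6 and 15.9, while replicate 2 lists none. None was in a thresholded list.

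Over the cluster 67B, 14184 bp from the end of Hsp67Bc to the end of Hsp27 with 1 kb to each side, the comparison lists 21 regions with a median pooled signal of 32.8 and a range from 9.11 to 516. Of these, 2 were conservative peaks, those of Hsp26 and Hsp27, and 3 were in the larger list. The cluster was thus not covered evenly. The regions around Hsp23 and Hsp27 show the contrast most plainly, since the neighbours are transcribed in the same direction and their strongest regions had 12 and 516. The strongest regions of the other genes of the cluster lay between these values. Some neighbouring regions share 1 replicate region, as do those 626 and 835 bp upstream of Hsp26, which both stand at 21.4 in replicate 1 and 5.82 in replicate 2, so they are not independent measurements.

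**Figure D3:**
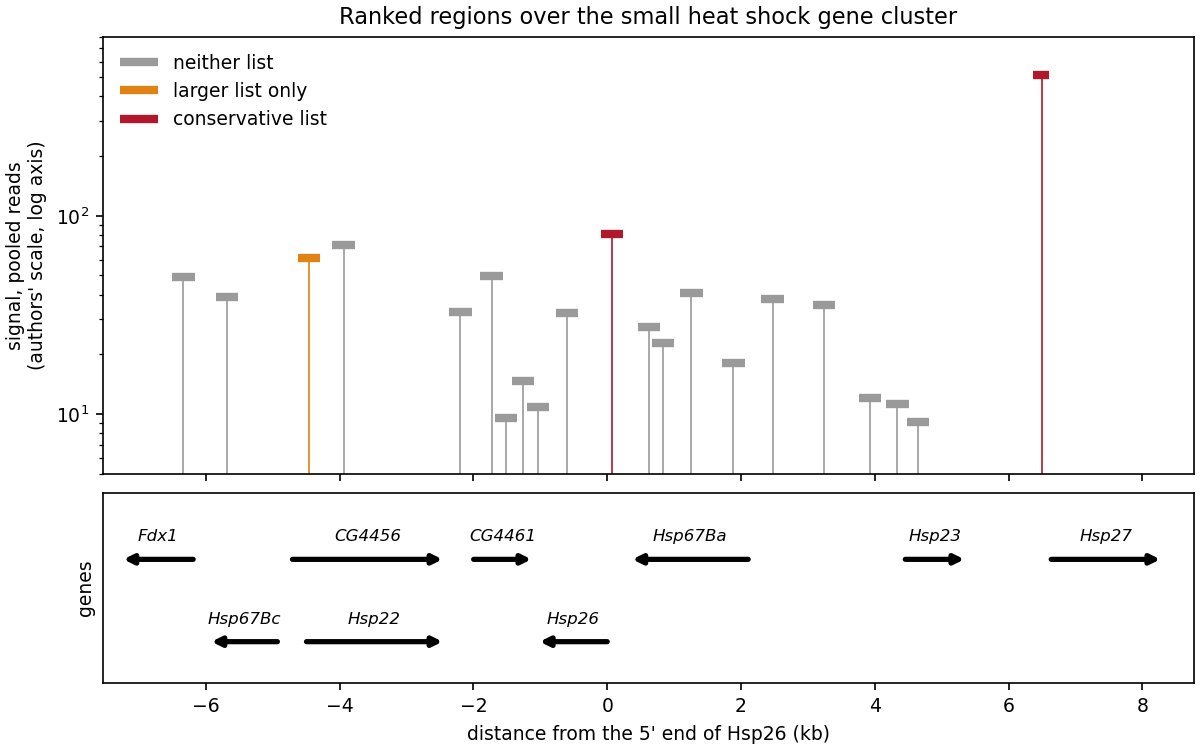
Pooled signal of each ranked region over the cluster 67B, by distance from the 5′ end of Hsp26, with a bar for the extent of each region and a thin line at its summit on a log axis. The conservative peak of Hsp27 at 516 stands apart at the right, and the conservative peak of Hsp26 has 80.9, and the regions between that peak and the 5′ end of Hsp23 carry values from 11.2 to 40.8.

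By strongest ranked signal, the median of the 9 genes was at percentile 81.0 of all protein-coding genes, with genes that have no region placed at 0. The percentiles were 99.2 for Hsp27, 96.4 for Hsp83, 84.1 for Hsp26, 81.0 for both Hsp22 and Hsp67Bc, 64.0 for Hsp68, 52.0 for Hsp67Ba, 15.7 for Hsp23 and 0.0 for Hsf. The shared region of Hsp22 and Hsp67Bc sets this median, so it counts 1 measurement for both genes. Among the 8 genes with a region, the median strongest signal was 70.9, against 43.8 over the 11977 protein-coding genes with a region. The ratio of replicate 1 to replicate 2 at these strongest regions had a median of 2.71, from 1.16 to 5.89 (n = 8 genes, on 7 regions), against a median of 1.79 with quartiles of 1.25 and 2.70 at the strongest regions of all 11977 genes with one. The highest ratio, 5.89, is that of Hsp68, where replicate 2's own ranked file lists no region in the gene. With a 500 bp window the median of the members was 1.42. For the 3 genes with a conservative peak it was 1.39, against 1.51 with quartiles of 1.23 and 1.86 over the conservative peaks. Within 1 kb, replicate 1 was the higher sample at the strongest region of all 8 genes.

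**Figure D4:**
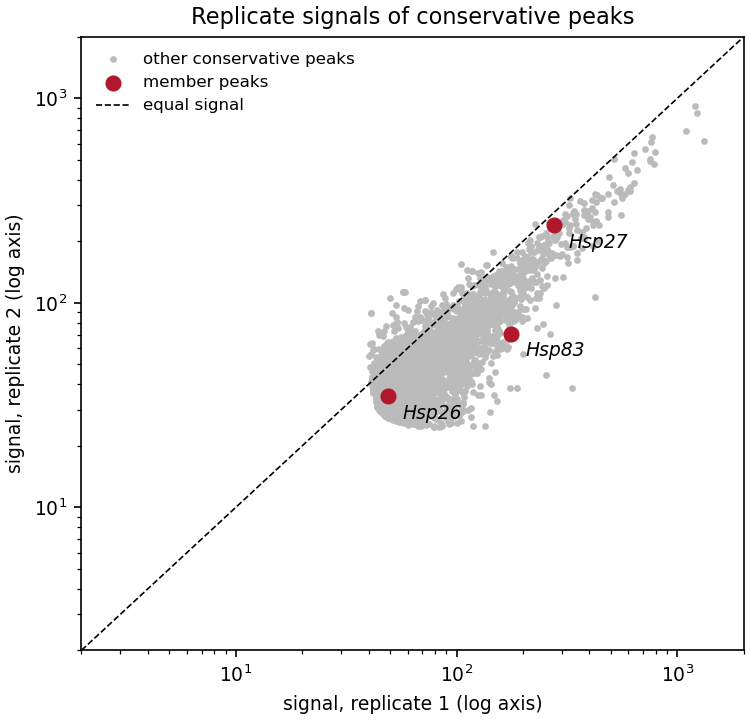
Signal of each conservative peak on the arms in replicate 1 and replicate 2, on log axes, with the peaks counted for heat shock genes in red and a dashed line of equal signal. Hsp27 at 276 and 239 lies near the line, Hsp83 at 176 and 70.8 further below it, and Hsp26 at 48.8 and 35.1 among the weak peaks.

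Heat shock elements were looked for from 250 bp upstream to 50 bp downstream of the 5′ end of each gene, on both strands. An element of 2 units is GAANNTTC or TTCNNGAA, and one of 3 units is both words overlapping in 3 bases. The element of 3 units was found in 1 of the 9 windows, that of Hsp68, and in 0.430% of all 13945 windows. Elements of 2 units were found in 4 of the 9, against 15.9% of all windows, with 6 matches at Hsp68, 3 at Hsp26, 2 at Hsp23 and 1 at Hsp67Bc. At least 6 matches occurred in 1 window of 13945, that of Hsp68, and at least 3 in 26 windows. The upstream 250 bases of Hsp68, Hsp26 and Hsp23 are printed to show these elements, which are in capitals, and the third match at Hsp26, which starts 3 bp downstream of the 5′ end, lies outside the stretch. They are chr3R:24057311-24057560 and chr3L:9377428-9377677, both on the minus strand, and chr3L:9381632-9381881 on the plus strand.
Hsp68 upstream: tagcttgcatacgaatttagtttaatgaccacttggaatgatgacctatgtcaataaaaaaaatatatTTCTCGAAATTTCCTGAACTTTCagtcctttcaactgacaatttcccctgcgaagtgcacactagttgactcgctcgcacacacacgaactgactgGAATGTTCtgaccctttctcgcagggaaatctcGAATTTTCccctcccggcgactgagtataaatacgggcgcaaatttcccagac
Hsp26 upstream: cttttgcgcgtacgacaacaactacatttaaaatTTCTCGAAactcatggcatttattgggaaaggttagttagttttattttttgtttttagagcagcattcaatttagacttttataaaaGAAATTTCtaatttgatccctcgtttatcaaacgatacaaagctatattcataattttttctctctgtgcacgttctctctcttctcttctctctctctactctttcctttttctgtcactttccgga
Hsp23 upstream: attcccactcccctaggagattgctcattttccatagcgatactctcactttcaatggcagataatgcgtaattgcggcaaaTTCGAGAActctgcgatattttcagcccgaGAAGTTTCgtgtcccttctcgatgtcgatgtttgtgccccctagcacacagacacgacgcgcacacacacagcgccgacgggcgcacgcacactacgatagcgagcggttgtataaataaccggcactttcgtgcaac

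Element matches and CG11085 signal did not follow the same order across the genes. Hsp26, with 3 matches, more than any of the others but Hsp68, had a conservative peak, and its signal of 80.9 was below those of Hsp27 and Hsp83 alone. Hsp68, with 6 matches, had no ranked region there in the comparison, which lists no summit for 17642 bp around this promoter. Within 1 kb of its TSS, replicate 1 and replicate 2 list only a summit 917 and 893 bp upstream. No signal at the elements of Hsp68 can thus be given. The region of Hsp23 centred 117 bp upstream of its TSS, beside elements at 168 and 138 bp upstream, had 11.2. Hsp27, with the highest signal, had no match in the window, and its nearest element of 2 units started 194 bp upstream of the summit. At Hsp26 the nearest started 54 bp upstream of the pooled summit and 128 bp upstream of the 5′ end. The summits of replicate 1 and replicate 2 lay closer to it, 150 and 135 bp upstream of the 5′ end. At Hsp83 a GAANNTTC started 10 bp downstream of the pooled summit and 68 bp upstream of the TSS at 3193216, outside the window of the longer transcript. The summits of replicate 1 and replicate 2 lay further from it, 109 and 116 bp upstream of that TSS. Over all conservative peaks on the arms, 4.79% had an element of 2 units within 50 bp of the summit, and 0.192% one of 3 units. With 500 bp upstream in the window, the element of 3 units was found at Hsp23 also, 405 bp upstream, and that of 2 units at 8 of the 9 genes, all but Hsp67Ba, against 0.717% and 27.3% of all windows. At the second TSS of Hsp22, 9373997, 2 matches to GAANNTTC started 188 and 87 bp upstream, and no ranked summit lay between them and the TSS.

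GAGAG, the word of GAGA factor, was found in the windows of Hsp22, Hsp23 and Hsp26, 3 of 9, against 29.7% of all windows. At Hsp26 it had 6 matches, counting overlaps, which started from 68 to 35 bp upstream of the 5′ end and so directly downstream of the summit, of which the stretch printed above holds 3. As many as 6 were found within 50 bp of the summit of 7 of the 2610 conservative peaks, or 0.268%, Hsp26 being 1 of the 7, and in 2.03% of promoter windows. These summits are those of pooled reads. At Hsp26 the summits of replicate 1 and replicate 2 lay 150 and 135 bp upstream of the 5′ end. None of the 6 matches started within 50 bp of either. Hsp27 and Hsp83 had no GAGAG in their windows or within 50 bp of their summits, and 10.1% of conservative summits had one. TATAAA was found in 7 of the 9 windows, against 45.8% of all. A match started 28 bp upstream of the 5′ end in Hsp27, Hsp67Bc and Hsp68, and 27 bp upstream in Hsp23. The only match of Hsp83 started 148 bp upstream, and that of Hsp22 249 bp upstream. Hsp26 had 3 matches, from 137 bp upstream to 24 bp downstream.

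Homeodomains commonly bind words with TAAT, and CG11085 encodes one. TAATTG was found in the windows of Hsp23, Hsp27, Hsp83 and Hsf, 4 of 9, against 25.2% of all windows, and TAATTA in that of Hsp83, 1 of 9, against 20.4% of all. TAATTG started 45 bp from the Hsp27 summit and 9 bp from the intron summit of Hsp83. The Hsp83 summit at the TSS and the Hsp26 summit had neither TAATTG nor TAATTA within 50 bp. TAAT alone was not counted, so no share over all summits can be given. The stretch printed around the Hsp26 summit does hold TAAT. Among conservative summits, 11.0% had TAATTG and 8.66% TAATTA within 50 bp. TATCGATA, the word of the factors BEAF-32 and DREF, was in the window of Hsp83, 182 bp upstream of its 5′ end, and in no other of the 9, against 9.36% of all windows. The shorter CGATA, which TATCGATA contains, was in 5 of the 9 windows, against 47.4% of all. They were those of Hsp22, Hsp23, Hsp26, Hsp83 and Hsf. A CGATA also started 22 bp from the pooled Hsp26 summit, and 17.7% of conservative summits had one within 50 bp. GGTCACAC was in none of the 9 windows and in 7.70% of all.

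Related genes outside the set were looked at as lists. The 6 Hsp70 genes, Hsp70Aa, Hsp70Ab, Hsp70Ba, Hsp70Bb, Hsp70Bbb and Hsp70Bc, encode the main heat-inducible Hsp70 and are near-identical copies, so reads from them may not map to 1 place. None had a conservative summit or a ranked region within 1 kb in the comparison, 0 of 6 against 15.1% of all genes for summits. The other series-level ranked file lists 4 regions there, replicate 1 lists 1 and replicate 2 lists none. Of the other genes of the cluster, CG4461 and CG4456 had no conservative summit, 0 of 2, and their strongest regions had 49.9 and 70.9, that of CG4456 being the region shared with Hsp22 and Hsp67Bc.

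A list of 26 further chaperone and co-chaperone genes was not restricted to those that act without heat. Among these 26, 6 had a conservative summit within 1 kb, or 23.1%, against 15.1% of all protein-coding genes. By pooled signal they were the DnaJ-family gene mrj with 309, the cytosolic Hsp70 cognate Hsc70-4 with 180.4, DnaJ-H with 165, the mitochondrial Hsc70-5 with 152, the BAG-domain co-chaperone stv with 152, and the Hsp90 of the endoplasmic reticulum, Gp93, with 121. In each replicate these were 192 and 128 for mrj, 79.6 and 87.9 for Hsc70-4, and 69.3 and 49.0 for Gp93, in replicates 1 and 2. All 6 were thus below Hsp27, and mrj alone was above Hsp83. In 4 of the 6, all but mrj and stv, the summit also lay within 1 kb of the TSS of a further gene. With a 250 bp window 3 of the 26 counted, or 11.5%, near the 10.5% of all protein-coding genes.

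Of 16 genes whose products act at heat shock promoters or in polymerase pausing, 7 had a conservative summit, or 43.8%, against 15.1% of all protein-coding genes. The 6 strongest were brm, the ATPase of a chromatin remodeller, with 705, the pausing factor subunits TH1 with 388 and Nelf-E with 325, the GAGA factor gene Trl with 241, Top1 with 232 and Nelf-A with 156. The seventh was spt4 with 103. The strongest region of trx, also of the 16, reached 2.09 on the −log10 IDR scale, above the lowest conservative value of 2.00. It was in neither the conservative nor the larger list, and the reason is not known. In 6 of the 7, all but Top1, the summit also lay within 1 kb of the TSS of a further gene, and with the nearest TSS alone 4 of the 16 counted, against 10.6% of all protein-coding genes. The median percentile by strongest signal was 81.0 for the heat shock genes and Hsf, 54.3 for the 26 chaperone genes and 84.2 for these 16 genes, and the differences between the lists were not tested.

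**Figure D5:**
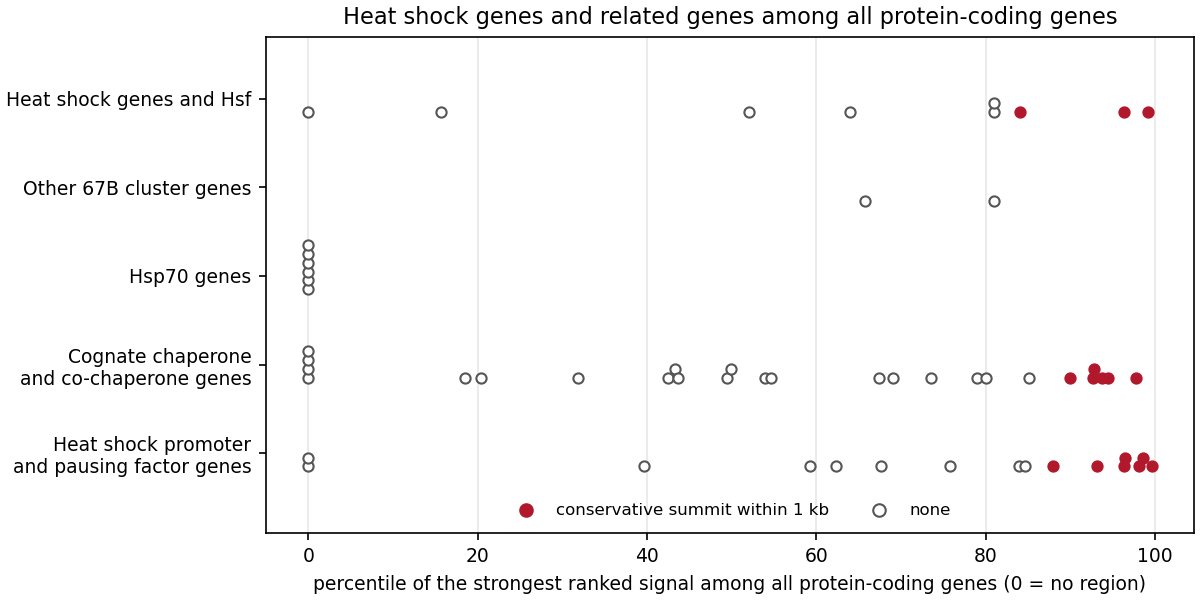
Percentile of the strongest ranked signal of each gene among all protein-coding genes, with 1 row of points for each list and filled points for genes with a counted conservative summit. The 9 genes of the top row spread from 0.0 to 99.2, the 6 Hsp70 genes are all at 0.0, and filled points lie at 84.1 and above.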

How the data were processed

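DNA from anti-GFP chromatin immunoprecipitation of whole embryos was sequenced in 2 biological replicates of 1 group. The files are 8 peak lists deposited by the authors in dm6 coordinates, with a control file among the inputs, per the deposited file lists, and chromatin was sonicated to 200 to 800 bp, per the labels. No source used here names the aligner or the peak caller. The deposited signal of each peak has no stated scale and comes from pooled reads in the series-level lists. The IDR score, a whole number up to 1000, and the −log10 of the global IDR are also the authors' deposited values. Read depth is unknown, so no interval on a signal can be given.

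The replicate signals were read from the series-level ranked file whose 2 sets of input regions matched the replicates by coordinates: 94582 of its 147249 rows held a region of replicate 1 and none of replicate 2 in one set, and 73541 held a region of replicate 2 and none of replicate 1 in the other. No column name ties them. Summits were assigned to any TSS within 1 kb in Ensembl release 115, transposable elements left out, and sequence came from RefSeq. Words were matched exactly, on both strands, with Python 3.11.15, pandas 2.3.3 and numpy 2.4.6. Summit assignment and word search were tested on simulated data. Genes were named by rule: all 9, genes sharing their peaks, up to 6 genes per other list, and the 2 nearest in log10 replicate signals. The seventh gene of 1 list, spt4, was named after its value was seen, as was trx of the same list. The members, the lists, the words and the alternatives were chosen with earlier results of these data known. Alternatives were the larger list, each replicate's own list, a global IDR of 0.001, other windows and other assignments.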

Additional observations from a re-analysis of the deposited data

How the results depend on the processing

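Hsp27 and Hsp83 were named by every list, window and assignment tried, and Hsp26 by all but the lists of single replicates and a global IDR of 0.001 or below. The count of 3 heat shock genes became 5 in the larger list, where Hsp22 and Hsp67Bc enter by 1 shared summit, and was 2 without replicate 1 and 2 without replicate 2. The other cluster genes went to 1 in the larger list, by the same summit. The chaperone genes fell to 3 with a TSS window of 250 bp, and the promoter and pausing factor genes to 4 with the nearest protein-coding TSS alone. The median percentile of the 9 genes was 76.3 with a 2 kb window and 77.9 with genes lacking a region left out, and from 79.6 to 81.6 by the signal of a single replicate. The median replicate ratio was 1.42 with a 500 bp window and 1.39 for the genes with a conservative peak, both within 1.48 of the 2.71 reported, the SD over the 8 genes. The element of 3 units was found at 2 genes with 500 bp upstream, and that of 2 units at 4 with the 250 bp used throughout. Of the alternatives, 9 moved a value by more than the limit set, a factor of 1.5 for a count and 1 SD for a median, and 52 did not. That SD was 1.42 for the percentile, over the replicates, and 1.48 for the ratio, over the 8 genes. The limits are thus unlike, and the falls of the ratio from 2.71 to 1.42 and 1.39 are among the 52. The cause of these shifts was not tested beyond what each setting changes. No paired analysis was possible because there is 1 group.

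Depth limits what can be said of genes without a peak: with no read totals, a weak or missing region is not evidence that CG11085 was absent there. A control file was among the inputs of the authors' peak lists, but control reads were not analysed here, and signal at these sites without the fusion was not measured.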
